A study of Sorghum bicolor with 9 samples.

Results

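Heat shock factors, HSP70 chaperones and Clp chaperones are the regulators and the core machines of the protein folding response, and their transcripts were followed here in sorghum leaves under saline-alkali soil. The members are the genes whose protein family label in the deposited table reads HSF_DNA-bind, HSP70 or Clp_N. They number 62 of 35281 genes: 24 heat shock factors, 33 HSP70 genes and 5 Clp genes. The plants were wild-type Sorghum bicolor of the inbred line BTx623, sampled at the stage of 4 leaves, and all 9 libraries came from leaf RNA. Control plants grew under normal conditions, moderate plants in soil with 3‰ salt at pH 8.1, and severe plants in soil with 5‰ salt at pH 8.1. Each group held 3 biological replicates. For the control soil no salt content or pH is stated in the labels, nor is the length of the stress, and another label of the stressed plants writes these salt digits as percent. The comparisons below are moderate against control, severe against control, which share the control libraries, and severe against moderate.

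Heat shock factors are transcription factors that form trimers on heat shock elements in the promoters of chaperone genes. In plants the family is large, and it holds both activators and members that lack an activation domain and can repress. HSP70 chaperones bind exposed hydrophobic stretches of other proteins and release them in cycles driven by ATP, with J-domain partners that stimulate the cycle, and plants keep separate HSP70 forms in the cytosol, the endoplasmic reticulum, plastids and mitochondria. The Clp N-terminal domain marks ring-shaped ATPases that pull proteins through a central pore. It is found in ClpB-type disaggregases, which rescue aggregated proteins, in the plastid ClpC and ClpD partners of the Clp protease, and in some plant signalling repressors of related build. The label gives the family only, so none of the 62 genes can be assigned to a subclass or a cell compartment here.

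Total counts ranged from 17792497 to 22449989 per library. A count of 0 in a single library therefore allows up to 3 counts, or 0.134 to 0.169 CPM, the count scaled to a common library size, for counting error only. Levels below are CPM after TMM normalisation, a scaling that assumes most genes do not differ, and they are listed for replicates 1, 2 and 3 in that order. Normalisation factors differed by group, at 0.904 to 1.02 in control, 1.33 to 1.41 in moderate and 0.512, 0.858 and 0.973 in severe replicates 1 to 3. Scaling by total counts alone moved the median log2 change over the tested genes by 0.48 for moderate against control, -0.30 for severe against control and -0.77 for severe against moderate, so small changes are read against those shifts. A gene is said to have risen or fallen only where edgeR's quasi-likelihood test gave a Benjamini-Hochberg adjusted p under 0.05 over all 22356 genes that passed the filter on low counts. Of the 62 members 47 passed this filter: 22 heat shock factors, 20 HSP70 genes and all 5 Clp genes. The heat shock factor Sobic.003G194400 and the HSP70 gene Sobic.001G418600 passed it through severe libraries alone, so they had to differ. They are included in the counts of genes that rose. In bulk leaf RNA, less RNA per cell and fewer cells of a type cannot be told apart. No gene of the table carried the 2 leaf marker labels chosen for a check of the tissue, the light-harvesting proteins and the small subunit of Rubisco, so that check was not made.

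The classes moved differently as wholes. Heat shock factors took 0.0416, 0.0412 and 0.0592% of all counts in the control libraries, 0.0813, 0.0676 and 0.0612% in moderate and 0.153, 0.156 and 0.159% in severe. The severe libraries lay above all others, by 3.30 times against control on average. This share is on the scale of total counts and uses no normalisation factor. HSP70 genes took 0.285, 0.293 and 0.312% of counts in control, 0.247, 0.299 and 0.268% in moderate, and 0.648, 0.496 and 0.638% in severe. Control and moderate overlapped on this scale, and severe was 2.00 times the control. Clp genes went the other way, with 0.223, 0.208 and 0.202% in control, 0.170, 0.174 and 0.193% in moderate and 0.129, 0.138 and 0.140% in severe, so that the 3 groups did not overlap. Each of these differences between severe and control gave p = 0.1 in a 2-sided exact permutation test, the smallest value that 3 libraries against 3 allow. The sums depended on the scale. After TMM normalisation the HSP70 sum was 1990 ± 140.5 CPM in moderate, below all control libraries at 3042 ± 131 (SD, n = 3, exact permutation p = 0.1), and severe was 2.74 times the control. The heat shock factor sum was then 4.45 times the control in severe, and moderate overlapped control. The Clp sum no longer separated severe from control: it was 1851 ± 581 CPM in severe and 2169 ± 262 in control (SD, n = 3, exact permutation p = 0.5). In moderate the Clp sum had its lowest mean, 1315 ± 116 CPM (SD, n = 3). That was below all control libraries (exact permutation p = 0.1) and overlapped severe.

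Under severe stress most heat shock factors moved. Of 22 tested, 15 rose, 4 fell and 3 did not pass, while of all tested genes 66.5% were called, 31.6% as higher and 34.9% as lower. Severe and control libraries did not overlap for 21 of the 22, and for 72.1% of all tested genes. The median log2 change of the 22 was 1.68, against -0.19 over all tested genes. The factor with the largest rise was Sobic.010G164400 (chromosome 10, 48575060 to 48577328, minus strand). It read 0.635, 0.304 and 0.202 CPM in control, 14.2, 18.4 and 11.0 in moderate and 227, 155 and 107 in severe. The 3 groups did not overlap, and the order ran from control through moderate to severe. The log2 rise was 8.73 (SE 1.58, edgeR adjusted p = 1.02e-05) in severe and 5.24 (SE 1.08, adjusted p = 0.00116) in moderate, both against control. Its control level rested on 22 counts in all, and the control mean of 0.380 CPM was 0.253 without control replicate 1.

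Sobic.004G101400 (chromosome 4, 9370582 to 9372529) followed the same order. Its control libraries read 1.75, 1.27 and 1.31 CPM, its moderate libraries 39.2, 36.1 and 14.1, and its severe libraries 109, 139 and 128. After TMM normalisation the severe values lay close together, with an SD of 15.6 on a mean of 125 CPM. Before it they did not: the raw severe counts were 1142, 2614 and 2216, with replicate 1 well below the others. Moderate replicate 3 was well below the other moderate libraries. The log2 rise was 4.37 (SE 0.91, adjusted p = 0.00121) in moderate and 6.44 (SE 1.21, adjusted p = 1.55e-05) in severe. These are the factors whose rise in moderate leaves passed under each of the 15 alternative settings.

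Sobic.003G194400 (chromosome 3, 51702125 to 51705116) was raised in severe leaves alone. Its control libraries held 10 counts together and its moderate libraries 12, at 0.106, 0.304 and 0.101 and at 0.124, 0.202 and 0.1 CPM. In severe it read 19.7, 13.1 and 42.9 CPM. Control and moderate overlapped near the detection floor, and every severe library was above 13. The fitted log2 difference was 7.16. Since the gene entered the test through its severe libraries, no p is given. The severe mean of 25.2 CPM was 16.4 without severe replicate 3. Sobic.001G057700 (chromosome 1, 4366254 to 4370034) did the same from a higher base, with 28.3, 21.3 and 21.3 CPM in control, 22.1, 27.5 and 26.5 in moderate and 464, 241 and 402 in severe. Its log2 change was 0.10 (SE 0.29, adjusted p = 0.84) in moderate and 3.96 (SE 0.78, adjusted p = 2.35e-05) in severe.

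Other factors also stood higher in both stresses, but with a moderate step that was measured less firmly. Sobic.007G180300 (chromosome 7, 61379333 to 61382309) read 9.57, 10.2 and 9.09 CPM in control, 25.7, 16.3 and 19.7 in moderate and 329.9, 189 and 174 in severe. Sobic.003G286700 (chromosome 3, 61990167 to 61991833) read 45.6, 47.7 and 34.4 CPM, then 141, 91.6 and 88.6, then 629, 448 and 228. Neither gene's groups overlapped, and the severe rises were 4.58 (SE 0.88) and 3.35 (SE 0.77) on the log2 scale. Their moderate rises of 1.09 (SE 0.38, adjusted p = 0.0337) and 1.33 (SE 0.49, adjusted p = 0.041) were no longer called with DESeq2 size factors, nor when any 1 control library, moderate replicate 1 or moderate replicate 3 was left out. For Sobic.003G286700 the same held for moderate replicate 2. Sobic.002G225300 (chromosome 2, 61728112 to 61732631) read 11.9, 6.08 and 2.48 CPM, then 28.9, 18.7 and 17.1, then 309, 93.7 and 109.7. It rose in severe by 4.65 (SE 1.16, adjusted p = 0.000371), with a severe mean of 171 CPM that was 102 without severe replicate 1. Its moderate change of 1.66 (SE 0.73, adjusted p = 0.0912) did not pass, although the groups did not overlap.

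**Figure D1:**
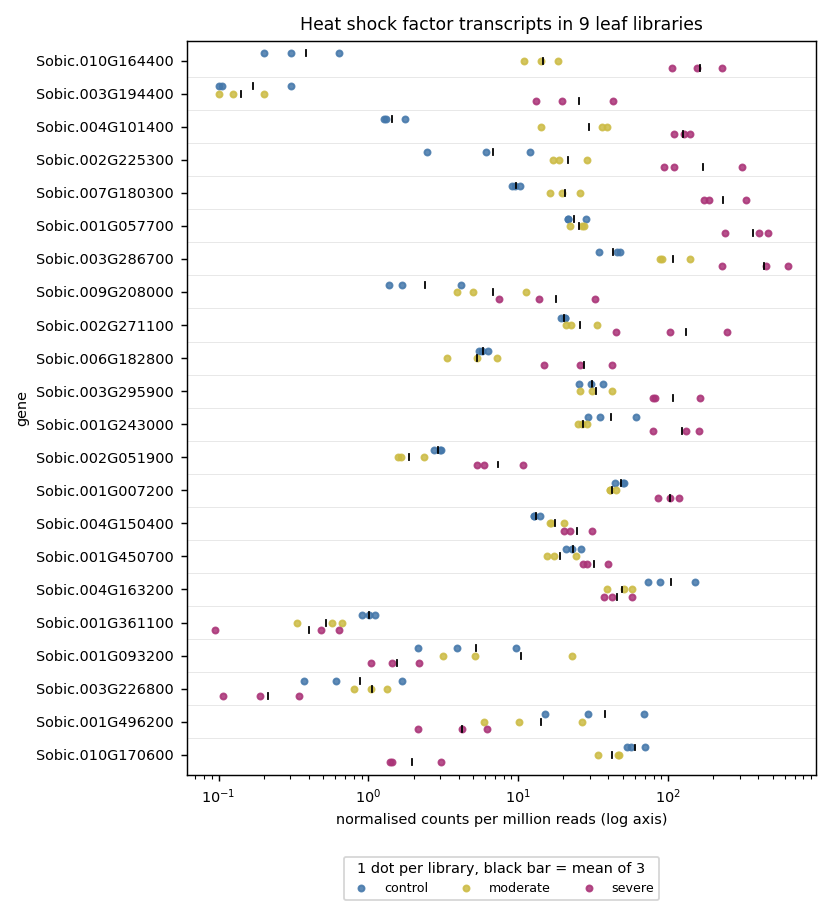
Normalised CPM (log axis) of the 22 tested heat shock factors, 1 dot per library and a black bar for the mean of 3, ordered by the log2 change in severe against control. The uppermost gene, Sobic.010G164400, steps from below 1 CPM in control to 107 or more in severe, and the lowest, Sobic.010G170600, drops to 3.04 CPM or less in severe.

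The remaining 8 factors that rose in severe leaves did so by 0.90 to 2.90 on the log2 scale. The largest of these was Sobic.009G208000, at 4.12, 1.67 and 1.36 CPM in control and 32.4, 13.7 and 7.45 in severe (17.9 on average, 10.6 without severe replicate 1). It shares 368 bases with a gene on the other strand that had 6818 counts against its own 1404, and no source used here says whether counting took strand into account. Sobic.003G295900, which rose by 1.81 (SE 0.51), shares 795 bases with an opposite gene of 17940 counts against its 9149, so both values carry that uncertainty. Sobic.002G271100 rose by 2.71 (SE 0.79) but spread from 45.0 to 248 CPM over the severe libraries, with a mean of 132 that was 73.7 without severe replicate 1. The rises of Sobic.002G051900 (1.32) and Sobic.004G150400 (0.90) lost the call with total-count scaling, while that of Sobic.001G007200 (1.08) kept it.

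In severe leaves 4 factors fell, and they included the factor with the highest level per length in control. Sobic.010G170600 (chromosome 10, 50202452 to 50204430) read 56.7, 52.8 and 70.3 CPM in control, 46.2, 34.0 and 46.9 in moderate and 1.43, 3.04 and 1.39 in severe. Each severe library was below 4 CPM, and the log2 change was -4.92 (SE 0.94, adjusted p = 1.86e-05). On the FPKM scale deposited by the authors, which divides by gene length, it averaged 29.4 ± 4.72 in control and 1.02 ± 0.472 in severe (SD, n = 3). Its rank by this level among the 24 factors went from 1 to 19.

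Sobic.001G496200 read 29.1, 15.0 and 69.2 CPM in control and 6.18, 4.21 and 2.14 in severe, a log2 change of -3.19 (SE 1.02, adjusted p = 0.00412). The control mean of 37.8 CPM was 22.0 without control replicate 3, and severe and control did not overlap. The moderate libraries, at 26.6, 10.1 and 5.95 CPM, overlapped both. Sobic.004G163200 (chromosome 4, 51241681 to 51245486) read 88.7, 73.4 and 152 CPM in control, 39.3, 57.3 and 50.5 in moderate and 57.8, 37.5 and 41.9 in severe. It was lower in both stresses, by 1.09 and 1.2 on the log2 scale, with moderate and severe overlapping. The moderate call (adjusted p = 0.0421) was lost in 10 of 15 alternative settings, the severe call (adjusted p = 0.00822) in none. Sobic.003G226800 fell from 0.370, 0.608 and 1.67 CPM to 0.190, 0.107 and 0.347, near the detection floor. Its log2 change of -2.01 was -1.18 without control replicate 3, and the call was also lost without severe replicate 1 or 2.

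Moderate stress moved fewer members of the class. Of 22 tested factors 4 rose and 1 fell, or 22.7%. Over all tested genes 17.1% were called, 8.94% as higher and 8.17% as lower. The groups did not overlap for 12 of 22, where 55.9% of all tested genes did not overlap. The 4 that rose were Sobic.010G164400, Sobic.004G101400, Sobic.003G286700 and Sobic.007G180300, and each of them rose again from moderate to severe. That pattern of both steps upward held in 2.32% of all tested genes. With total-count scaling 7 factors rose and 0 fell in moderate, and with DESeq2 size factors 2 rose and 0 fell. The class had 2 calls when any 1 control library, moderate replicate 1 or moderate replicate 3 was left out, and 3 when moderate replicate 2 was.

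HSP70 genes split into members that rose by a large factor, members that hardly moved and members that fell. Of 20 tested, 11 rose and 2 fell in severe against control, and 7 did not pass. The 65.0% called were close to the 66.5% of all tested genes, and 55.0% rose where 31.6% of all tested genes did. The median log2 change was 1.47. Sobic.003G350700 (chromosome 3, 67021779 to 67024939) read 7.62, 6.49 and 4.24 CPM in control, 57.7, 48.1 and 36.4 in moderate and 2229, 841 and 1329 in severe. Its groups were ordered without overlap. The log2 rise was 2.95 (SE 0.74, adjusted p = 0.00391) from control to moderate and 4.95 (SE 1.04, adjusted p = 6.78e-05) from moderate to severe. Sobic.009G163900 (chromosome 9, 52032825 to 52036139) read 5.71, 3.35 and 3.13 CPM, then 67.8, 38.2 and 14.4, then 913, 333 and 368. Its mean was 40.2 CPM in moderate, or 26.3 without moderate replicate 1, and 538 in severe, or 350.5 without severe replicate 1. The log2 rise against control was 3.30 (SE 0.95, adjusted p = 0.00964) in moderate and 7.05 (SE 1.54, adjusted p = 7.40e-05) in severe.

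Sobic.006G055600 (chromosome 6, 39887948 to 39891236) showed the same 2 steps at a lower level. It read 0.317, 0.253 and 0.152 CPM in control, 4.97, 1.98 and 0.568 in moderate and 77.9, 22.0 and 36.4 in severe. The groups did not overlap, although its highest moderate library was 8.76 times its lowest, and the mean without replicate 1 was 1.28 CPM in moderate (2.51 with it) and 29.2 in severe (45.5 with it). The moderate rise of 3.34 (SE 1.14, adjusted p = 0.0286) was lost without any 1 control library and without moderate replicate 1 or 2. These 3 genes together held 0.336 to 0.621% of the summed HSP70 FPKM in control, 3.43 to 9.17% in moderate and 23.0 to 30.4% in severe.

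**Figure D2:**
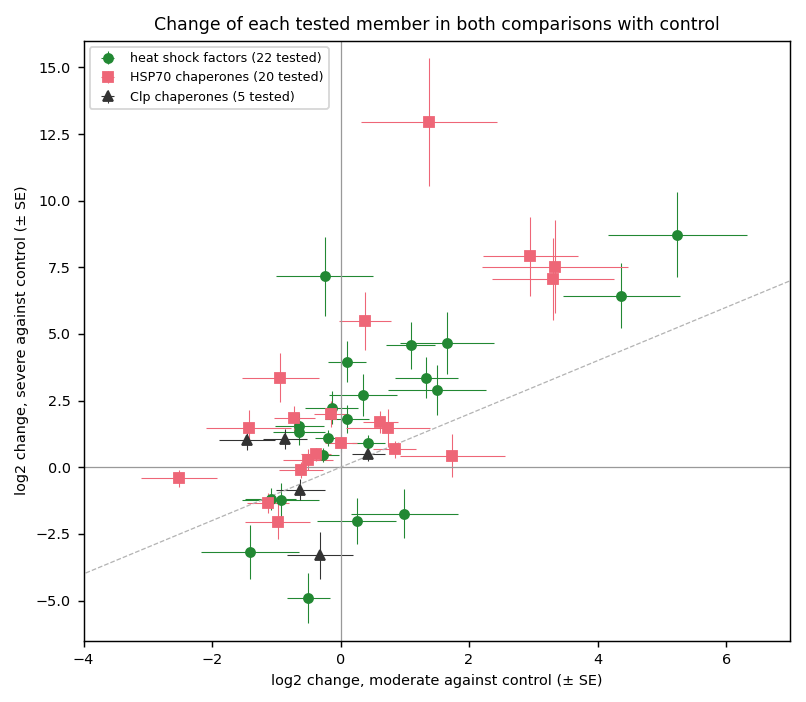
Log2 change of the 47 tested members in moderate (horizontal) and severe (vertical) against the same control libraries, with SE bars and a dashed line where both changes are equal. Sobic.001G418600 stands highest, at a fitted 12.95 in severe and 1.37 in moderate that depend on the prior count since its control had 3 counts, and 5 members lie at 2.95 or more in moderate, all of which rose by 6.44 or more in severe.

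A cluster of 12 HSP70 genes occupied 130 kb of chromosome 1 (69932394 to 70062529), with 5 other genes of the table between them. Most of the cluster had few counts or none. No count was found for 5 of its genes in any of the 9 libraries, and 4 more had between 1 and 8 counts over all of them. High counts were found only in the genes at the ends, and for the first of them only in severe libraries. Sobic.001G418600, the first of the cluster, had 2, 1 and 0 counts in the control libraries, 3, 5 and 4 in the moderate ones, and 5263, 3214 and 12020 in the severe ones. Its severe level of 501, 171 and 694 CPM stood against a control that had 3 counts in all. The ratio of pooled normalised counts was 8570, with a 95% exact counting interval of 2930 to 41600. This gene too entered the test through its severe libraries, so no p is given.

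At the other end of the cluster, Sobic.001G420100 was already abundant in control, at 226, 198 and 313 CPM. It read 140.0, 100.3 and 143 CPM in moderate, below each control library, and 4891, 1606 and 1046 in severe. The log2 change was -0.94 (SE 0.60, adjusted p = 0.266) in moderate and 3.36 (SE 0.92, adjusted p = 0.000973) in severe. The severe mean of 2515 CPM was 1326 without severe replicate 1. Its neighbour Sobic.001G419900, 3.91 kb away, read 0.899, 1.37 and 1.82 CPM in control and 6.85, 2.77 and 1.91 in severe. That rise of 1.48 (SE 0.65, adjusted p = 0.0358) became 0.77 without severe replicate 1 and was lost in 8 of 15 alternative settings. No source used here says how reads that match several copies of a repeated gene were counted, so levels within the cluster are uncertain where its genes share sequence.

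**Figure D3:**
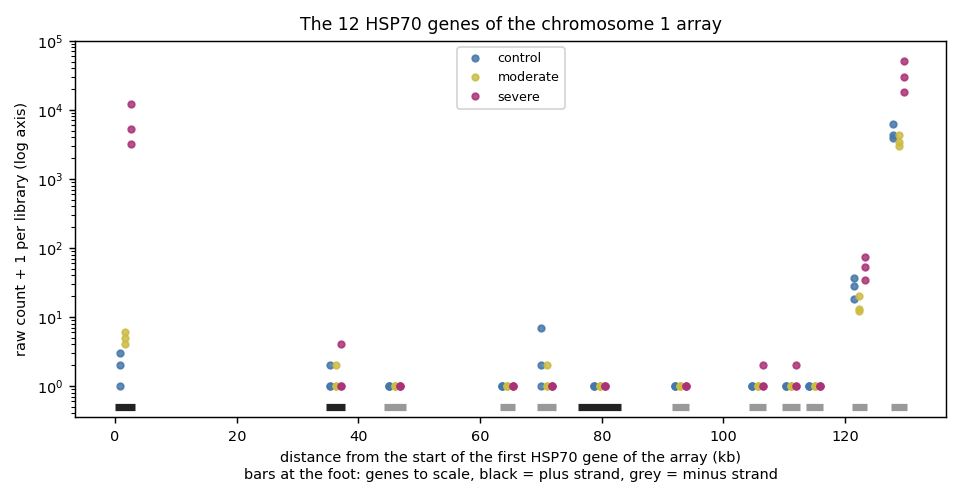
Raw count + 1 per library (log axis) of the 12 clustered HSP70 genes, placed by distance in kb from the start of the first, with the genes drawn to scale at the foot. High severe counts stand at both ends (3214 to 12020 on the left and 18119 to 51409 on the right), and the 9 genes from the second to the tenth stay at 6 counts or fewer in every library.

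The other HSP70 genes that rose in severe leaves stood apart from the cluster. Sobic.001G454000 (chromosome 1, 73039652 to 73043648) read 2.75, 3.95 and 3.08 CPM in control, 4.02, 5.24 and 3.47 in moderate and 197, 68.9 and 169.8 in severe. Control and moderate overlapped, and the severe rise was 5.48 (SE 1.08, adjusted p = 2.51e-05). Sobic.001G193500 went from 63.5, 64.3 and 66.4 CPM to 307, 162 and 299.6, a rise of 1.99 (SE 0.48, adjusted p = 0.000249). Sobic.009G066900 and Sobic.009G067000 lie 26.7 kb apart on opposite strands with no other gene of the table between them. The first read 169, 156 and 159 CPM in control and 754, 438 and 535 in severe, a rise of 1.83 (SE 0.46). The second rose by 0.90 (SE 0.32), or 0.59 without severe replicate 1, and lost the call with total-count scaling. Sobic.004G263500 rose by 1.69 (SE 0.41) from 30.5 ± 1.80 to 98.3 ± 24.3 CPM.

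In severe leaves 2 HSP70 genes fell. Sobic.008G088200 (chromosome 8, 18774401 to 18779411) read 469, 425 and 431 CPM in control, 185, 197 and 222 in moderate and 146, 187 and 189 in severe. Every stressed library was below every control library. The change was -1.13 (SE 0.33, adjusted p = 0.0113) in moderate and -1.34 (SE 0.36, adjusted p = 0.000817) in severe. The moderate call was lost with total-count scaling and without control replicate 1 or moderate replicate 1 or 2. Sobic.006G045200 read 9.99, 13.4 and 12.5 CPM in control, 5.22, 6.92 and 5.98 in moderate and 0.951, 3.31 and 4.33 in severe, and it fell in severe by 2.04 on the log2 scale (SE 0.65, adjusted p = 0.00386).

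Sobic.001G129000 (chromosome 1, 10143995 to 10152169) was lowest in moderate. It read 557, 444 and 422 CPM in control, 78.5, 87.2 and 84.9 in moderate and 511, 295 and 259 in severe. Control and severe overlapped, and the moderate libraries were tightly grouped below both. The change was -2.51 (SE 0.59, adjusted p = 0.00236) from control to moderate and 2.09 (SE 0.53, adjusted p = 0.000499) from moderate to severe, both kept under each of the 15 alternative settings. A fall in moderate, a rise between the stresses and no call in severe against control were found together in 1.31% of all tested genes. Against control its severe change of -0.42 (SE 0.32, adjusted p = 0.242) did not pass, and its size depends on the scale.

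In moderate against control, 3 of 20 tested HSP70 genes rose and 2 fell, and their median log2 change was -0.07. The 25.0% called compare with 17.1% of all tested genes, and the 17 whose groups did not overlap with 55.9%. With total-count scaling the split was 6 higher and 1 lower. A fit without the severe libraries gave 6 higher and 9 lower, where 4815 and 4688 of all 21109 genes tested in it were called. Without severe replicate 1 the split was 5 and 6, where all 22995 tested genes gave 3676 and 3692. It was 2 and 1 without control replicate 1 or without moderate replicate 1 or 2. The authors' deposited table called 5 HSP70 genes higher and 9 lower in this comparison. Of all 27533 genes with a value it called 5070 higher and 4929 lower.

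The make-up of the HSP70 pool also differed between the groups. Shares of the summed FPKM within a class do not depend on the scaling between libraries, but FPKM here divides by the genomic span, introns included, for all 62 members. Sobic.008G136000 (chromosome 8, 56470318 to 56474560) led the class in control with 44.0, 44.1 and 41.1% of the summed HSP70 FPKM. It held 36.6, 44.1 and 39.3% in moderate and 8.28, 13.6 and 14.8% in severe. Its own level did not pass in severe against control, at 1273, 1183 and 1210.1 CPM in control and 1346, 934 and 1121 in severe (log2 change -0.11, SE 0.31, adjusted p = 0.762). That small change depends on the scale. The raw counts were 24079, 23328 and 23953 in control and 14151, 17501 and 19410 in severe. Taken over the library totals, every severe library was below every control library.

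In severe leaves the lead went to Sobic.001G420100, from 12.6, 11.9 and 17.1% in control to 48.5, 37.6 and 22.3%, and Sobic.003G350700 came next, from 0.354, 0.324 and 0.193% to 18.4, 16.4 and 23.5%. In severe replicate 3 the order of these genes was the reverse. Sobic.001G418600 held 3.95, 3.19 and 11.7% in severe. Sobic.008G088200, the third of the class in control at 13.2 ± 0.704%, held 1.72 ± 0.84% in severe (SD, n = 3). Since Sobic.001G418600 passed the filter through severe libraries alone, no p is given for its share. Each of the other shares differed between severe and control without overlap, with exact permutation p = 0.1, the smallest the design allows.

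Sobic.004G011700 (chromosome 4, 962795 to 966975) had its highest share in moderate, at 15.5, 16.6 and 17.3% against 5.61, 6.94 and 6.74% in control and 2.32, 4.30 and 2.65% in severe. Its level was 159.7, 184 and 196 CPM in control, 284, 342 and 338 in moderate and 371, 292 and 198 in severe. The moderate libraries lay above all control libraries, but the log2 change of 0.84 (SE 0.34, adjusted p = 0.0661) did not pass, and neither did the severe change of 0.68 (SE 0.32, adjusted p = 0.0538). The moderate change passed with total-count scaling, in a fit of control and moderate alone, without severe replicate 1 or 3, and with DESeq2, and the severe change with DESeq2 size factors, with DESeq2 and without severe replicate 3.

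**Figure D4:**
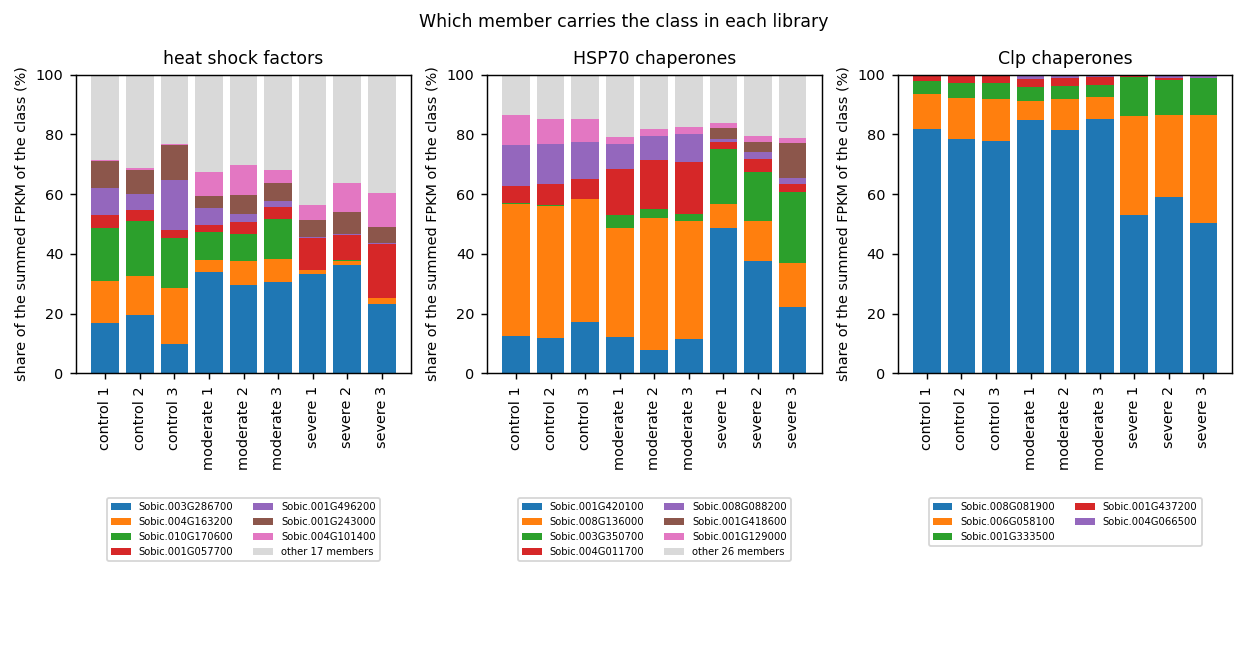
Share of the summed FPKM of each class (percent) carried by its leading members in each of the 9 libraries, 1 stacked bar per library with the other members in grey. In the HSP70 panel Sobic.008G136000 shrinks from 41.1 to 44.1% in control to 8.28 to 14.8% in severe, and in the Clp panel Sobic.008G081900 goes from 77.6 to 81.7% down to 50.2 to 59.1%.

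Among heat shock factors the make-up also turned over. In control the largest shares of the summed FPKM of the class belonged to Sobic.010G170600 (17.5 ± 0.745%), Sobic.004G163200 (15.4 ± 3.01%) and Sobic.003G286700 (15.3 ± 5.05%), which did not differ beyond their spread. In severe, Sobic.003G286700 held 30.9 ± 6.75%, Sobic.001G057700 12.5 ± 4.98%, Sobic.007G180300 9.41 ± 0.751% and Sobic.010G164400 8.67 ± 0.607%, while Sobic.010G170600 held 0.130 ± 0.0727% (SD, n = 3). Sobic.010G164400 had held 0.102 ± 0.0652% in control and 3.21 ± 0.992% in moderate. Sobic.003G286700 already held 31.3 ± 2.36% in moderate, so its share did not differ between the stresses (exact permutation p = 0.9) although its level did.

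**Figure D5:**
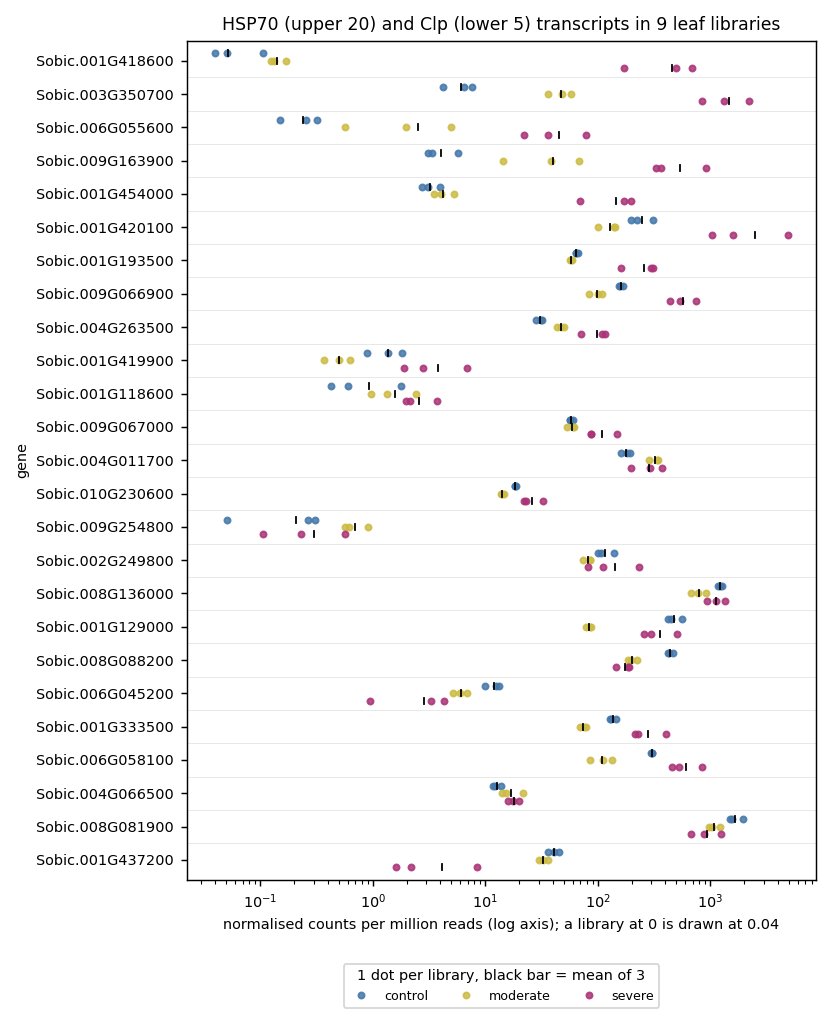
Normalised CPM (log axis) of the 20 tested HSP70 and 5 Clp genes, 1 dot per library and a black bar for the mean of 3, ordered within each class by the log2 change in severe against control. Sobic.001G418600 goes from 0.106 CPM or less in control to 171 or more in severe, and the Clp gene Sobic.001G437200 drops from 36.5 or more to 8.48 or less.

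Sobic.008G081900 (chromosome 8, 14626347 to 14632978) was the most abundant per length in every group, at 245 ± 37.3 FPKM in control, 158 ± 16.7 in moderate and 149.9 ± 60.6 in severe (SD, n = 3). It read 1967, 1571 and 1494 CPM in control, 1047, 984 and 1210.4 in moderate and 1245, 889.6 and 671 in severe. All stressed libraries lay below all control libraries, but neither change passed: -0.63 (SE 0.38, adjusted p = 0.232) in moderate and -0.84 (SE 0.40, adjusted p = 0.0519) in severe. The severe change passed with total-count scaling, without a filter on low counts, without severe replicate 1 and with DESeq2.

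Sobic.006G058100 (chromosome 6, 40432572 to 40439841) fell and then rose. It read 307, 298 and 302 CPM in control, 85.2, 133 and 112 in moderate and 849, 454 and 530.2 in severe. No groups overlapped, and moderate was the lowest and severe the highest. The log2 change was -1.46 (SE 0.44, adjusted p = 0.0137) in moderate against control, 1.02 (SE 0.39, adjusted p = 0.0154) in severe against control and 2.48 (SE 0.58, adjusted p = 0.000241) between the stresses. Calls in all 3 comparisons with these signs were made for 0.608% of tested genes. Leaving out control replicate 1 or 2 took both calls against control to an adjusted p between 0.0502 and 0.0559, as did control replicate 3 for severe and moderate replicate 1 or 3 for moderate. With total-count scaling the severe rise was 0.60 (adjusted p = 0.064).

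Sobic.001G333500 (chromosome 1, 62224868 to 62233524) read 146, 128 and 132 CPM in control, 79.4, 69.3 and 75.2 in moderate and 403, 229.9 and 215 in severe. It had the same order of groups, and the severe rise of 1.06 (SE 0.36, adjusted p = 0.00763) passed while the moderate change of -0.86 (SE 0.34, adjusted p = 0.0598) did not. Sobic.001G437200 (chromosome 1, 71551820 to 71558193) was the Clp gene that fell. It read 36.5, 45.6 and 40.8 CPM in control, 29.9, 32.9 and 35.9 in moderate and 1.62, 8.48 and 2.19 in severe. The severe mean of 4.10 CPM was 1.91 without severe replicate 2, and the log2 change was -3.30 (SE 0.88, adjusted p = 0.000703). Sobic.004G066500 (chromosome 4, 5408847 to 5416471), at 11.8, 12.3 and 13.7 CPM in control and 16.1, 20.2 and 17.5 in severe, changed by 0.51 (SE 0.27, adjusted p = 0.0827) and did not pass.

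Over the class, 2 Clp genes rose and 1 fell in severe against control, and 0 rose and 1 fell in moderate. Of all tested genes 66.5% were called in the first of these comparisons and 17.1% in the second, so 3 and 1 of 5 lie near the background. With total-count scaling the severe split was 1 higher and 2 lower. DESeq2, and the fit without severe replicate 1, each called all 5, with 3 higher and 2 lower. Within the class Sobic.006G058100 went from 13.2 ± 1.40% of the summed FPKM in control to 32.2 ± 4.40% in severe, and Sobic.001G333500 from 4.94 ± 0.305% to 12.4 ± 0.742% (SD, n = 3), each without overlap and with exact permutation p = 0.1.

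In severe against moderate 14 of 22 tested heat shock factors were higher and 4 lower, 13 of 20 HSP70 genes were higher and 0 lower, and 2 of 5 Clp genes were higher and 1 lower. Of all tested genes 63.2% were called, 29.6% as higher and 33.6% as lower. Severe and moderate libraries did not overlap for 17 of the factors, 15 of the HSP70 genes and 3 of the Clp genes, and for 69.6% of all tested genes. The absence of lower HSP70 calls held for edgeR with TMM and with DESeq2 size factors, but not in every setting. At an unadjusted p under 0.05 edgeR with TMM gave 1, Sobic.006G045200. With the replicate block that fit called 1 lower. DESeq2 called 1 lower, the fit without severe replicate 1 called 2, the fit without severe replicate 3 called 1, and total-count scaling called 4 beside 10 higher. With total-count scaling the Clp split was 2 and 2. The largest change between the stresses was that of Sobic.001G418600 (a fitted 11.58, from 12 counts in moderate and so dependent on the prior count), followed by the factor Sobic.003G194400 (7.41), and both had entered the test through their severe libraries. The heat shock factor Sobic.001G093200 passed as lower only in this comparison (-2.73, SE 1.05, adjusted p = 0.0179). Its moderate libraries read 23.0, 5.14 and 3.14 CPM, and without moderate replicate 1 the change was -1.41 and did not pass, nor did it pass without severe replicate 3. The HSP70 gene Sobic.010G230600 passed as higher only here, by 0.87 (SE 0.29), which became 0.00 with total-count scaling.

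Severe replicate 1 had the lowest normalisation factor and the highest normalised level for 12 of the 15 heat shock factors and 10 of the 11 HSP70 genes that rose, and for 65.1% of the 7057 genes that rose in severe leaves. On the scale of total counts it was the highest for 4 of 15 and 4 of 11, and for 28.6% of the 7057. The part of this library's scaling in its levels was not tested. Without severe replicate 1, 15 heat shock factors rose and 3 fell, and 10 HSP70 genes rose and 3 fell. Of all 22995 genes then tested, 7206 rose and 7956 fell. The median coefficient of variation of TMM-normalised levels over the tested members was 42.2% in severe for heat shock factors and 42.5% for HSP70 genes. It was 17.5 and 17.0% in control and 25.3 and 14.7% in moderate. These values include the normalisation factors, which were 0.512, 0.858 and 0.973 in severe. As shares of all counts the severe class sums were 0.153, 0.156 and 0.159% for factors and 0.648, 0.496 and 0.638% for HSP70 genes. The part of the scaling in the spread was not tested. On the TMM scale Sobic.004G101400 was the steadiest riser among the factors, at 12.4% in severe, but that ranking depends on the scale. Its raw severe counts were 1142, 2614 and 2216, from totals of 20543646, 21842574 and 17792497. Those of Sobic.007G180300 were 3467, 3534 and 3013, which varied less over the same totals.

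The 15 members that did not pass the filter were near or at 0. The heat shock factors Sobic.002G224200 and Sobic.002G392500 had 1 and 22 counts over all 9 libraries. Of 13 HSP70 genes, 7 had no count at all, 5 of them in the chromosome 1 cluster, and a count of 0 allows up to 3 counts per library. Sobic.003G378700 had 57 counts in severe replicate 2 and 0 in the other severe libraries, with 4 in moderate and 1 in control libraries, so its severe level rests on 1 library. The other 5 had 1 to 8 counts.

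Partner families of the folding network were counted by their labels. Of 92 tested J-domain co-chaperones 43 rose and 25 fell in severe against control (median log2 change 0.32). Of 17 genes with the ATPase domain of HSP90 and related enzymes (HATPase_c, a label that other ATPases share) 7 rose and 3 fell (median 0.86). Of 50 prolyl isomerases, which speed a slow step of folding, 10 rose and 21 fell (median -0.58). Of 87 AAA-type ATPases 36 rose and 20 fell (median 0.38), and of 13 tetratricopeptide proteins 5 rose and 4 fell (median 0.38). Of all tested genes 31.6% rose and 34.9% fell, and their median was -0.19. In moderate against control the counts higher and lower were 9 and 8, 3 and 2, 2 and 12, 9 and 5, and 0 and 1 in the same order, where 8.94% of all tested genes rose and 8.17% fell. Small heat shock proteins, chaperonins, nucleotide exchange factors and Clp protease subunits carried none of the labels searched and are not analysed here.

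The authors' deposited table, which rests on their own adjusted p-values, called 15 heat shock factors higher and 4 lower in severe against control, and 11 HSP70 genes higher and 2 lower. Of all 27979 genes with a value in that comparison, the table called 7733 higher and 7378 lower. For the 20 tested HSP70 genes its calls in that comparison matched those from edgeR gene by gene, and for 2 of the 22 tested factors they differed. In moderate against control its calls differed for 9 of 20 HSP70 genes, 2 of 22 factors and 2 of 5 Clp genes.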

How the data were processed

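Leaf RNA of 9 libraries, 3 per group, was sequenced, and the groups follow the sample titles. The submitters' processing notes name HISAT2 2.0.5 and DESeq2 1.20.0. No source used here gives the genome build, the read counter, its strand setting or the adjustment of the authors' p-values. In the deposited table are raw counts per gene and library, which were used for every test. It also holds FPKM computed by the authors, used here for levels per length and shares of a class. The log2 fold changes and p-values in the deposited table are the authors' own and were used only to count their calls. Gene length in the table equals the genomic span for all 62 members.

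From the counts, edgeR 4.0.16 (limma 3.58.1, R 4.3.3) was run with filterByExpr, TMM and a quasi-likelihood fit over all 9 libraries, with Benjamini-Hochberg adjustment over 22356 genes. The SE of a log2 change was taken from the change and its p. Shares and sums were compared by 2-sided exact permutation tests. Library totals were 17792497 to 22449989 counts, and intervals and floors cover counting error only. The fit was tested on simulated data. Alternatives were DESeq2 size factors, total-count scaling, no filter on low counts, a replicate block, only the libraries of the groups compared, each library left out, and DESeq2 1.42.0.

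The members, the partner lists and the rules were chosen with earlier results of these data known. Genes named with values were every Clp member and, of the other classes, the 8 largest changes in severe, the 3 largest in moderate, the 3 highest by FPKM in each group and every member that fell in severe. Others were named after their values were seen.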

Additional observations from a re-analysis of the deposited data

How the results depend on the processing

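Over the 47 tested members, 3 comparisons and 15 alternative settings, 1961 member results kept their direction and side of the threshold, 74 lost a call, 74 gained one and 2 changed sign. Those 2 came with total-count scaling in severe against moderate, where the change of Sobic.001G450700 went from 0.74 to -0.12 and that of Sobic.009G067000 from 0.88 to -0.02. The cause was not tested.

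Counts of calls in moderate against control were the least stable. Heat shock factors had 5 calls, 2 with DESeq2 size factors and 2 to 6 when 1 library was left out. HSP70 genes had 5 calls, 15 with only the 2 groups compared and 3 to 11 when 1 library was left out. Clp genes had 1 call, 3 with only the 2 groups compared, 2 with DESeq2 and 0 to 2 when 1 library was left out. All tested genes had 3825 calls, 9503 with only the 2 groups compared, 5962 with DESeq2 and 1488 to 7368 when 1 library was left out, the most without severe replicate 1. In severe against control Clp genes had 3 calls, 5 with DESeq2 and 2 to 5 when 1 library was left out. In the same comparison heat shock factors had 18 to 20 calls, HSP70 genes 12 to 15 and all genes 13278 to 15289 when 1 library was left out. In severe against moderate these ranges were 15 to 18, 13 to 15 and 11982 to 14584, and Clp genes had 3 each time.

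With total-count scaling the calls of all genes split into 3707 higher and 704 lower in moderate against control (1998 and 1827 with TMM), 5497 and 7888 in severe against control (7057 and 7801), and 3729 and 10094 in severe against moderate (6624 and 7506).

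Whether the replicate numbers pair the libraries could not be settled here. Deviations of same-numbered libraries correlated at -0.0281 to 0.255, and those of differently numbered libraries at -0.269 to 0.137. Not every library correlated best with its own number. With the replicate block, heat shock factors had 6 calls in moderate against control, 19 in severe against control and 18 between the stresses. In the same order HSP70 genes had 5, 12 and 14, Clp genes 1, 3 and 3, and all genes 3533, 14606 and 13915. Of the members, 15 had too few counts to be tested at this depth.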
